A study of Mus musculus with 9 samples.

Results

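Voltage-gated ion channel genes were followed in the mouse olfactory bulb over the days in which the bulb forms. Genes were taken by symbol, those beginning with Kcn (potassium channels), Scn (sodium channels), Cacn (calcium channels) or Hcn (pacemaker channels). A gene counted as a member when a probe set that named it alone reached log2 5 on 2 or more of the 9 arrays, and the probe set of highest mean stood for the gene. The symbol rule named 121 genes, and 66 of them were members, out of 10864 genes that passed the same filter. Of the members, 41 were potassium channel genes, 17 calcium, 7 sodium and 1 a pacemaker channel gene, Hcn3. The members go beyond voltage-gated pores: inward rectifiers (Kcnj), tandem-pore leak channels (Kcnk), calcium-activated channels (Kcnn), most gamma subunits (Cacng) and the accessory proteins do not form voltage-gated pores, and Kcnq1ot1 is a non-coding RNA transcribed antisense within the Kcnq1 locus.

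The tissue was acutely dissected olfactory bulb of untreated CD1 mice, an outbred strain. There was 1 animal and 1 Affymetrix expression array per age, at embryonic days E11, E12, E13, E14, E15, E16, E17 and E18 and at birth (P0). No age had a replicate, so the only error available was the scatter of the 9 arrays around a trend. Embryo sex was not labelled, and by Xist 4 arrays were female (E11, E12, E15 and P0) and 5 male.

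Voltage-gated channels open when the membrane potential changes: sodium channels carry the upstroke of the action potential, potassium channels end it and set the firing pattern, and calcium channels turn it into transmitter release and gene expression. Each pore is made by alpha subunits, and accessory subunits set its surface number and its kinetics. In the olfactory bulb, mitral and tufted cells relay odour signals through action potentials, and the interneurons called granule and periglomerular cells act on them largely through their dendrites.

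All 9 arrays were alike as a whole: their median levels lay between 4.08 and 4.23 and the lowest correlation between any 2 arrays was 0.942. Levels are log2 units of a hybridisation signal, so levels of different probe sets were not compared. Markers of the labelled tissue were present. The neuron list (Tubb3, Stmn2, Snap25, Syt1, Rbfox3) had a median level of 12.64 at P0, against 9.36 at E11, and 4 of its 5 genes rose. Of 4 markers of mitral and tufted cells, Tbx21 (9.28 at P0, against 2.40 at E11) and Cdhr1 (13.86 at P0, against 6.39 at E11) rose, Tbr1 fell (10.29 at P0, against 11.57 at E11) and Eomes was not called. All 4 interneuron markers rose, all 4 progenitor markers fell and all 4 markers of meninges rose. Of 3 markers of olfactory sensory neurons, Gng13 rose (6.25 at P0, against 2.65 at E11), while Omp, the defining marker of the mature cells, lay between 2.15 and 2.24 on every array and Cnga2 did not pass the filter either. The part of a changing cell mixture in the channel results was not tested, and in a bulk tissue fewer cells of a type and less RNA per cell cannot be told apart.

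Channel genes mostly rose between E11 and P0. In a limma linear fit of level on age, with Benjamini-Hochberg adjustment over all 10864 genes and a threshold of 0.05, 39 of the 66 members rose, 5 fell and 22 were not called. Over all genes tested, 25.2% rose and 21.9% fell, whereas 59.1% of the members rose and 7.58% fell. The fitted change over the whole course had a median of 1.91 log2 units in the members, against 0.02 in all genes tested. At E11, 23 members were still under log2 5, while at P0 3 were, Kcnk5, Kcnmb2 and Kcnv1. Values under 5 have no firm order, and 18 of the 39 rising members were under 5 at E11, so their slopes partly run over values that are not well measured. The 23 members under 5 at E11 passed the filter only through later arrays, so the filter itself favoured a rise in them. The comparison with all genes tested was not matched for level at E11.

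**Figure D1:**
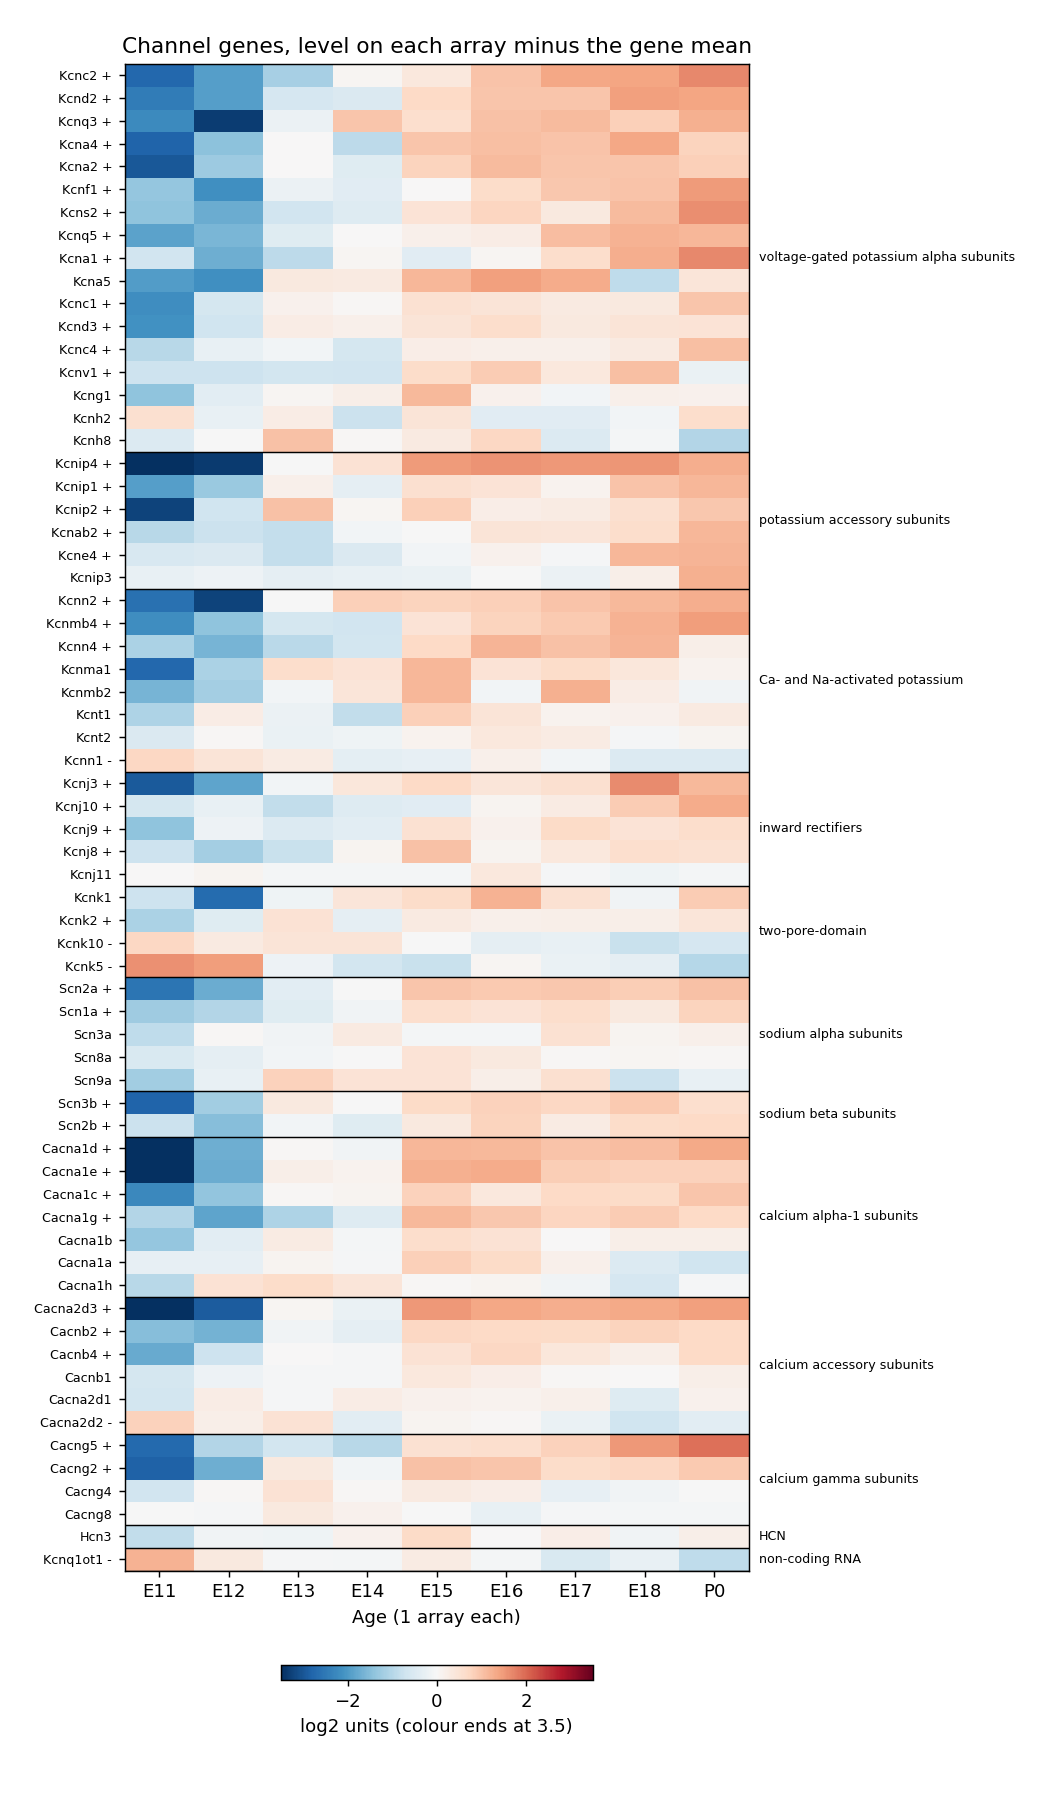
Level of each of the 66 channel genes on the 9 arrays (columns, 1 array per age) minus the gene's own mean, in log2 units, grouped by channel class (right). A plus marks the 39 genes that rose with age and a minus the 5 that fell. Most rows turn from blue at E11 and E12 to red from E15 on.

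Most of the increase was already there at E15. The median change of the members was 1.86 log2 units between E11 and E15, and 0.0063 between E15 and P0. By E15, 47 of the 66 members were at least 1 log2 unit higher than at E11, a difference that 17.5% of all genes tested showed. After E15, 9 members were at least 1 log2 unit higher at P0 than at E15, against 4.29% of all genes tested. The neuron markers had medians of 9.36 at E11, 12.22 at E15 and 12.64 at P0.

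**Figure D2:**
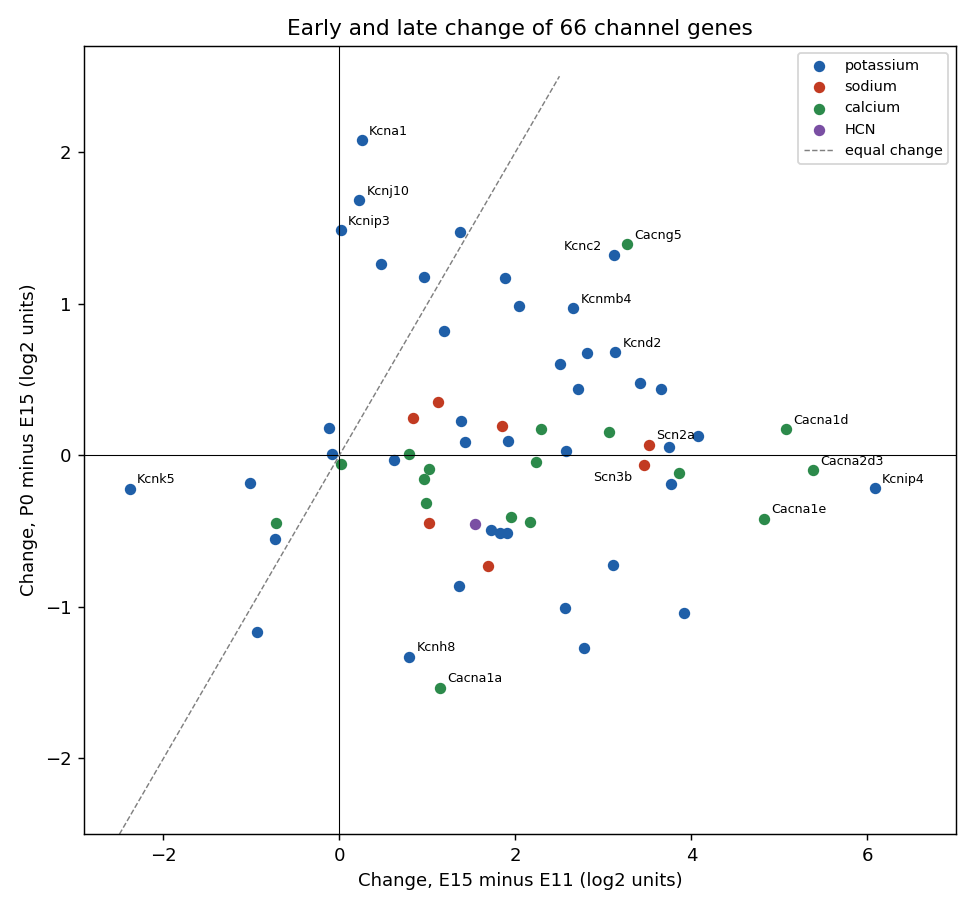
Change of each channel gene between E11 and E15 (horizontal) and between E15 and P0 (vertical), in log2 units, each from 2 single arrays, with the E15 array used on both axes. Colours mark the potassium, sodium, calcium and HCN genes, and the dashed line marks equal change. Kcnip4, Cacna2d3, Cacna1d and Cacna1e lie far to the right near 0 on the vertical axis, and Kcna1, Kcnj10 and Kcnip3 lie near the vertical line.

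Among the genes that make the pores of voltage-gated potassium channels, 17 of 31 named genes were members. Of the 17 members, 13 rose (76.5%, against 25.2% of all genes tested), 0 fell and 4 were not called. Their median fitted change over the course was 2.84 log2 units. The steepest was Kcnc2, which encodes a fast, high-threshold channel of rapidly firing neurons. It read 3.85, 4.66, 5.44, 6.66, 6.97, 7.59, 7.96, 7.97 and 8.29 from E11 to P0, with a slope of 0.56 ± 0.054 log2 units per day (SE, adjusted p = 3.83e-05). Each later array read higher than the one before, but E11 and E12 were under 5. With values under 5 set to 5 the Kcnc2 slope was 0.47. That is below the 0.50 of Kcnd2, which was above 5 on every array, so the rank of Kcnc2 rests on values under 5.

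Kcnd2 and Kcnd3 encode the A-type channels that damp dendritic excitability. Kcnd2 read 6.76, 7.26, 8.62, 8.69, 9.90, 10.17, 10.17, 10.63 and 10.58, a slope of 0.50 ± 0.054 (adjusted p = 7.86e-05) and a P0 level 14.1-fold that of E11. Kcnd3 read 8.40 at E11 and between 9.83 and 11.13 from E12 on, with a slope of 0.24 ± 0.068 (adjusted p = 0.0147). The rise of Kcnd3 rested on the first array: without E11 the adjusted p was 0.0535, and it was 0.0638 with the mean of all its probe sets. All its arrays from E12 on were above E11.

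Kcnq3, a subunit of the M-current channel that steadies firing, read 5.99, 4.91, 8.02, 9.20, 8.81, 9.26, 9.33, 9.05 and 9.48 (slope 0.48 ± 0.11, adjusted p = 0.00576). Its 2 lowest arrays were E11 and E12, and from E14 on all its arrays lay within a range narrower than the step between E12 and E13. Kcnq5, which forms related channels, rose by 0.40 ± 0.046 per day (adjusted p = 0.00012).

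Of the Shaker-type genes, Kcna2, a channel of axons, read 6.32, 8.01, 9.30, 8.86, 10.07, 10.39, 10.26, 10.25 and 10.12 (slope 0.42 ± 0.084, adjusted p = 0.00248). It was close to its highest level from E15 on. Kcna1, which joins Kcna2 in axonal channels, read 3.78, 2.74, 3.54, 4.51, 4.04, 4.53, 5.05, 5.72 and 6.12 (slope 0.36 ± 0.06, adjusted p = 0.000943). It was under 5 on the first 6 arrays and highest at P0, and its difference in timing from Kcna2 was not tested. Kcna4, an inactivating A-type channel of axons, rose by 0.44 ± 0.087 (adjusted p = 0.00232), whereas Kcna5 was not called (slope 0.27 ± 0.13, adjusted p = 0.113), with 6.42 at E17, 4.23 at E18 and 5.53 at P0.

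The electrically silent subunits Kcnf1 and Kcns2, which make channels only together with other alpha subunits, rose by 0.40 ± 0.051 and 0.40 ± 0.047 per day (adjusted p = 0.000189 and 0.000129). Kcnv1, another silent subunit, was called at an adjusted p of 0.0494, and the call was lost under 16 of 21 alternatives. Over all 21 the adjusted p lay between 0.00149 (mean of all Kcnv1 probe sets, call kept) and 0.299 (E13 to P0). Another Kcnv1 probe set rose by 0.36 per day (adjusted p over all probe sets = 0.000102). The silent subunit Kcng1, which entered the filter by its second-highest level of 5.07, was not called. Kcnh2, the ERG channel, and Kcnh8, of the related ELK group, were not called either (slopes -0.0039 ± 0.061 and -0.077 ± 0.072). The remaining high-threshold genes Kcnc1 and Kcnc4 rose by 0.27 ± 0.065 and 0.18 ± 0.041.

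**Figure D3:**
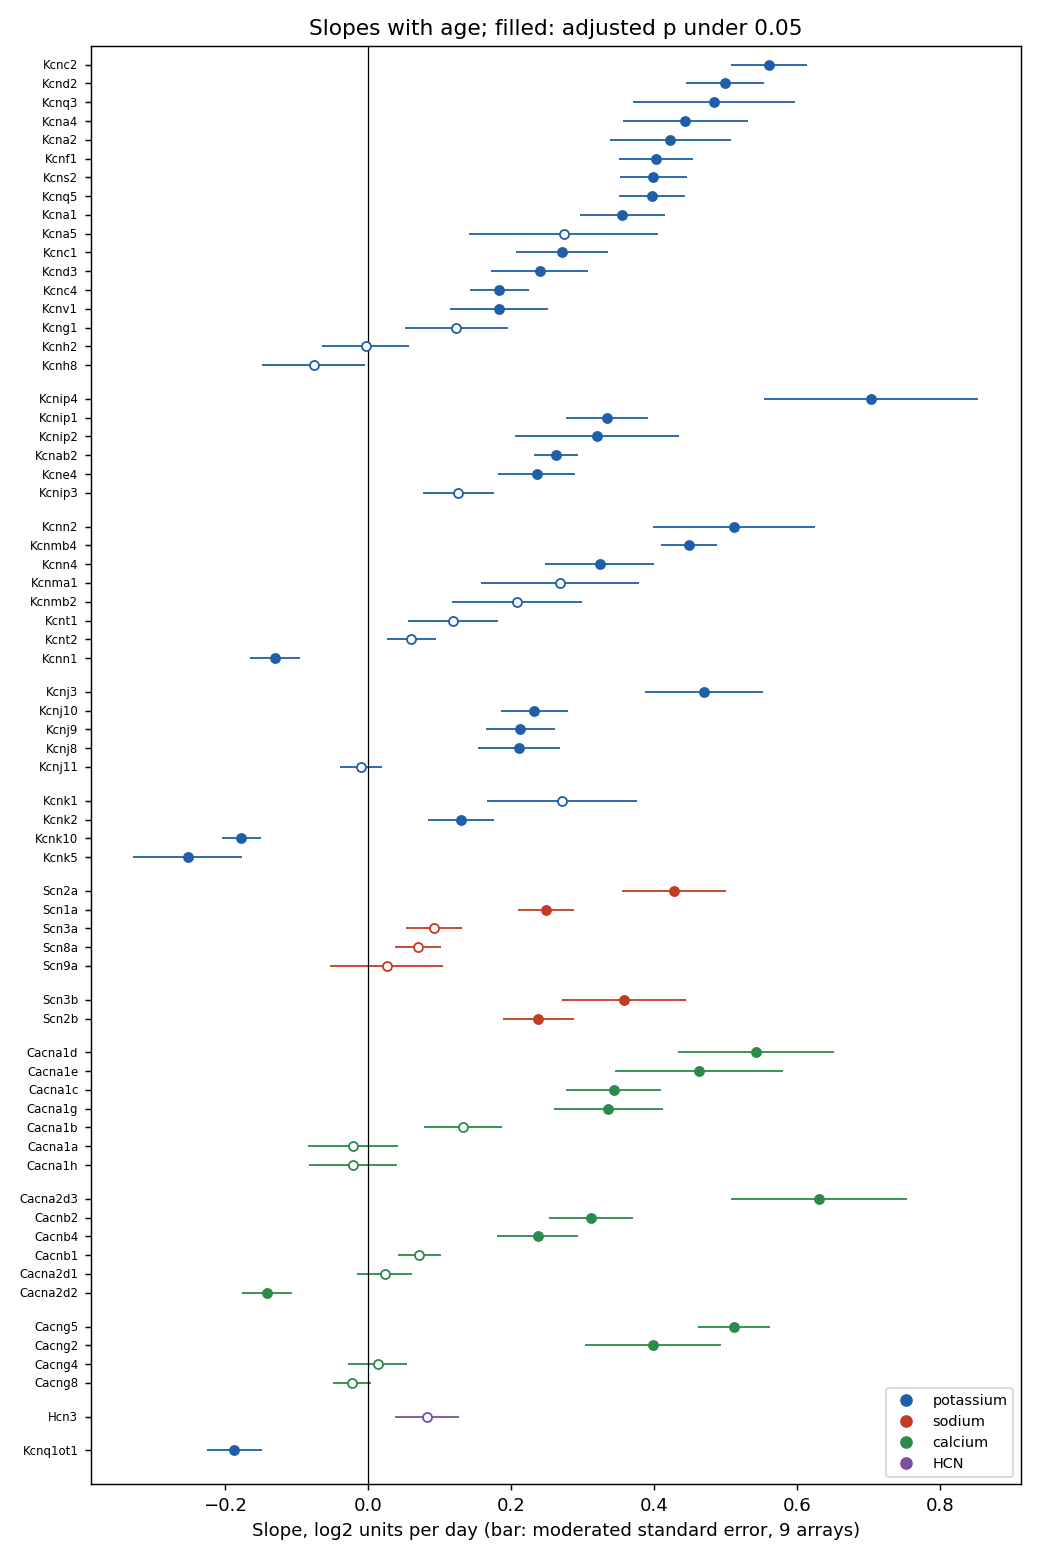
Slope of each channel gene with age, in log2 units per day with its moderated standard error, by channel class; filled points passed an adjusted p of 0.05 and open points did not. The highest slope is that of Kcnip4 (0.70) and the lowest that of Kcnk5 (-0.25).

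Accessory subunits of potassium channels gave the steepest slope of all members. Kcnip4, a calcium-binding protein that joins Kcnd channels, read 2.97, 4.21, 7.54, 8.04, 9.05, 9.12, 9.07, 9.09 and 8.83 (slope 0.70 ± 0.15, adjusted p = 0.00352). It was under 5 at E11 and E12, and with 5 set as the floor the P0 level exceeded that of E11 by at least 14.2-fold. From E13 on alone its slope was 0.21 (adjusted p = 0.0545). Its relative Kcnip1 read 8.77 at P0, against 5.67 at E11, and rose by 0.33 ± 0.058 per day (adjusted p = 0.00112).

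Kcnip2 rose too (slope 0.32 ± 0.11, adjusted p = 0.0413), with 7.71 at E12, against 5.17 at E11, but the call was lost under 12 of 21 alternatives, among them the omission of any of E11 (adjusted p = 0.245), E12, E14, E16, E17, E18 or P0. Kcnip3, which also acts in the nucleus as the repressor called DREAM, lay between 4.69 and 5.20 until E18 and at 6.24 at P0, and was not called (adjusted p = 0.0562). Kcnab2, the beta subunit of Shaker-type channels, rose by 0.26 ± 0.03 per day (adjusted p = 0.000116). Kcne4, a small membrane protein that inhibits several potassium channels, was called, but only its E18 and P0 arrays (5.04 and 5.05) reached 5, and with values under 5 set to 5 the adjusted p was 0.815.

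Of the channels opened by internal calcium or sodium, 3 of 8 members rose (37.5%), 1 fell (12.5%) and 4 were not called. Of all genes tested, 25.2% rose and 21.9% fell. Kcnmb4, the neuronal beta subunit of the large-conductance calcium-activated (BK) channel, had the smallest adjusted p of all members. It read 5.52, 6.28, 7.06, 7.01, 8.17, 8.47, 8.60, 8.92 and 9.15, a slope of 0.45 ± 0.039 per day (adjusted p = 2.3e-05). Kcnma1, the pore of the same channel, read 3.85, 5.50, 7.22, 7.09, 7.76, 7.08, 7.24, 7.01 and 6.72. The pore gene was highest at E15 and was not called for a linear rise (slope 0.27 ± 0.11, adjusted p = 0.0692), while the beta subunit was highest at P0. Of 3 further Kcnma1 probe sets, 2 rose (slopes 0.43 and 0.28), and the mean of all its probe sets was called at an adjusted p of 0.011, so the absence of a call depends on the probe set. Kcnmb2, a further BK beta subunit, was highest at E17 (6.21) and was not called.

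The small-conductance genes went in different directions by the probe sets used. Kcnn2, which underlies the afterhyperpolarisation of many neurons, read 3.71, 3.09, 6.33, 7.18, 7.13, 7.18, 7.34, 7.46 and 7.60 (slope 0.51 ± 0.11, adjusted p = 0.00437). Its E11 and E12 arrays stood apart from the later ones, which lay between 6.33 and 7.60. Kcnn1, its relative, fell by 0.13 ± 0.035 per day (adjusted p = 0.0119), with 6.05 at P0, against 7.25 at E11, and without E11 its adjusted p was 0.0656. Another Kcnn1 probe set was not called (slope -0.016, adjusted p over all probe sets = 0.634). With the mean of all Kcnn1 probe sets the fall was called at an adjusted p of 0.0391. Kcnn4, the intermediate-conductance channel best known from blood and immune cells, rose by 0.32 ± 0.076 (adjusted p = 0.00592), highest at E18 with 7.42. Of 3 microglia markers, Csf1r and Cx3cr1 also rose and Aif1 did not pass the filter, and their part in the Kcnn4 result was not tested. The sodium-activated genes Kcnt1 and Kcnt2 were not called (slopes 0.12 ± 0.063 and 0.06 ± 0.034).

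Inward rectifiers pass potassium near rest, and 4 of the 5 members rose (80.0%, against 25.2% of all genes tested). Kcnj3, a subunit of the channels opened by G proteins, read 4.32, 5.43, 7.18, 7.66, 7.97, 7.71, 7.84, 8.93 and 8.41 (slope 0.47 ± 0.083, adjusted p = 0.00126). It was lowest at E11 and highest at E18. Kcnj9, which forms the same kind of channel, rose by 0.21 ± 0.048 (adjusted p = 0.00503), between 3.62 and 5.68.

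Kcnj10, the main potassium channel of astrocytes, read 4.45, 4.80, 4.21, 4.60, 4.67, 5.17, 5.36, 5.96 and 6.36 (slope 0.23 ± 0.047, adjusted p = 0.00257). Its first 5 arrays were under 5 and did not order by age, and its last 4 rose day by day. The astrocyte marker Aqp4 read 7.60 at P0, against 2.46 at E11, and lay between 2.41 and 3.05 until E16. All 3 astrocyte markers that were tested rose, but not with the same course. Aldh1l1 read 2.31 at E12 and 8.82 at E13, and Slc1a2 was highest at E15 (11.03), with 10.51 at P0. Gfap lay between 2.32 and 2.47, and the part of these markers in the Kcnj10 result was not tested. Kcnj8, the pore of ATP-sensitive channels of pericytes and vessel muscle, rose by 0.21 ± 0.058 (adjusted p = 0.0127, and 0.0535 by exact rank correlation), beside 3 of 4 pericyte markers, among them its partner subunit Abcc9 with 7.80 at P0, against 4.76 at E11. The other ATP-sensitive pore, Kcnj11, lay between 5.80 and 6.32 on every array and was not called.

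Tandem-pore channels, which carry the resting leak, were the channel class with the lowest median change: -0.19 log2 units over the course in 4 members. Kcnk10, which encodes the mechanically and heat-gated channel TREK-2, read 8.09, 7.70, 7.83, 7.84, 7.35, 7.07, 7.10, 6.59 and 6.80 (slope -0.18 ± 0.027, adjusted p = 0.000566). All arrays up to E14 were above all later ones, and among the 5 falling members it was the 1 that kept its call under every alternative but E15 to P0 (adjusted p = 0.257). Kcnk5, an acid-sensitive leak channel, read 6.65, 6.5, 4.87, 4.39, 4.26, 5.11, 4.79, 4.72 and 4.04 (slope -0.25 ± 0.076, adjusted p = 0.0198). Only E11, E12 and E16 reached 5, so P0 lay at least 3.13-fold below E11. The call was lost without E11 (adjusted p = 0.116), without E12 (0.0661) and without P0 (0.0564). Kcnk2, the relative TREK-1, rose by 0.13 ± 0.046 (adjusted p = 0.0382), a call lost under 12 of 21 alternatives (0.244 without E11), and Kcnk1, a weakly conducting leak channel, was not called (adjusted p = 0.0551).

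Kcnq1ot1, the non-coding RNA taken by the symbol rule, fell by 0.19 ± 0.038 per day (adjusted p = 0.00286), with 7.44 at P0, against 9.55 at E11.

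The alpha subunits of sodium channels differed among themselves. Of 5 members, 2 rose (40.0%, against 25.2% of all genes tested), 0 fell and 3 were not called. Scn2a, the channel that first occupies the axon initial segment of excitatory neurons, read 7.40, 8.20, 9.59, 9.94, 10.91, 10.87, 10.89, 10.80 and 10.98 (slope 0.43 ± 0.073, adjusted p = 0.00103). The level climbed until E15 and the 5 arrays from E15 on lay between 10.80 and 10.98. At P0 it was 12.0-fold higher than at E11. Scn1a, known from inhibitory interneurons and from seizure disorders, read 7.0, 7.22, 7.83, 8.14, 8.84, 8.72, 8.87, 8.60 and 9.03 (slope 0.25 ± 0.039, adjusted p = 0.000691), again with all arrays from E15 on above all earlier ones.

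Scn3a, the main alpha subunit of the embryonic brain, read 8.17, 9.10, 8.94, 9.39, 9.01, 8.99, 9.61, 9.17 and 9.26, and was not called (slope 0.092 ± 0.039, adjusted p = 0.0735). Apart from E11 its arrays overlapped with no order by age. Scn8a, the channel of mature nodes and initial segments, was highest at E15 (9.21) and lowest at E11 (8.19), and was not called (slope 0.069 ± 0.032, adjusted p = 0.1). A further Scn8a probe set rose (slope 0.18, adjusted p over all probe sets = 0.0204) and another was not called (slope 0.015). With the mean of all Scn8a probe sets the adjusted p was 0.0564, so the absence of a call depends on the probe set. Scn9a, best known from peripheral sensory neurons, read 5.54, 6.5, 7.57, 7.24, 7.23, 6.95, 7.33, 6.0 and 6.5. It was highest at E13, was not called over the whole course (slope 0.026 ± 0.079, adjusted p = 0.812), and from E13 on fell by 0.20 per day (adjusted p = 0.0387), a fall that 11.2% of all genes tested showed over those ages.

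Both beta subunits rose. Scn3b, a beta subunit of embryonic neurons, read 7.64, 9.23, 10.80, 10.42, 11.10, 11.26, 11.16, 11.35 and 11.03 (slope 0.36 ± 0.087, adjusted p = 0.00688). Scn2b, which is bound to the alpha subunit by a disulphide bridge, read 6.46, 5.73, 7.13, 6.79, 7.58, 7.99, 7.52, 7.87 and 7.93 (slope 0.24 ± 0.05, adjusted p = 0.00332). Scn3b lay between 11.03 and 11.35 from E15 on, and all Scn2b arrays from E15 on were above all earlier ones.

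**Figure D4:**
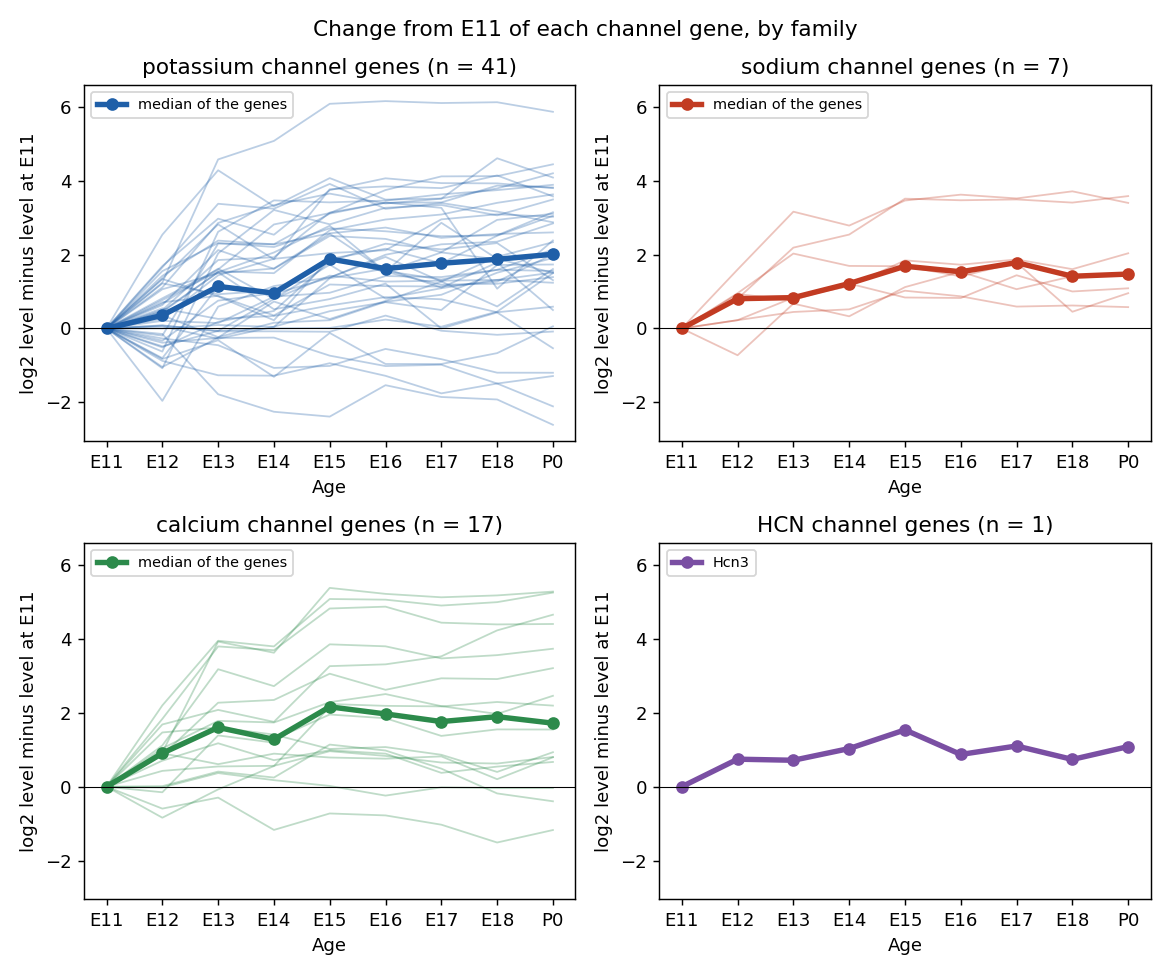
Median level minus level at E11 over the potassium, sodium, calcium and HCN channel genes (panels), in log2 units by age, with single genes as thin lines. The medians climb until about E15 and change little after it, and the HCN panel holds the single gene Hcn3.

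The alpha-1 subunits, which form the calcium pores, held 7 members of 9 named genes. Of the 7 members, 4 rose (57.1%, against 25.2% of all genes tested), 0 fell and 3 were not called. Both L-type genes rose. Cacna1d, which opens at low voltage for an L-type channel, read 3.74, 5.94, 7.69, 7.53, 8.82, 8.80, 8.64, 8.73 and 8.99 (slope 0.54 ± 0.11, adjusted p = 0.00261). Cacna1c, the other L-type gene of brain, read 5.52, 6.37, 7.79, 7.87, 8.58, 8.14, 8.45, 8.43 and 8.73 (slope 0.34 ± 0.067, adjusted p = 0.00215). Both genes were lowest at E11 and highest at P0.

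Cacna1e, the R-type channel, read 6.13, 7.97, 9.93, 9.83, 10.96, 11.01, 10.57, 10.53 and 10.54 (slope 0.46 ± 0.12, adjusted p = 0.00867), 21.2-fold higher at P0 than at E11. It was highest at E16, and an exact rank correlation with age gave an adjusted p of 0.102. Cacna1g, a T-type channel that opens near rest, read 4.09, 3.25, 4.02, 4.65, 6.25, 6.06, 5.85, 5.98 and 5.81 (slope 0.34 ± 0.076, adjusted p = 0.005). Its arrays fell into a set up to E14, all under 5, and a set from E15 on, all above it, and the exact rank correlation gave an adjusted p of 0.14.

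The channels of transmitter release were not called over the course by the probe sets used. Cacna1a, the P/Q-type channel, read 5.40, 5.41, 5.81, 5.64, 6.54, 6.38, 5.89, 5.21 and 5.0, highest at E15 and lowest at P0 (slope -0.021 ± 0.063, adjusted p = 0.805). From E15 to P0 alone, an alternative chosen after the values were seen, it fell by 0.42 per day (adjusted p = 0.0254), a fall that 1.59% of all genes tested showed over those ages. A second probe set for Cacna1a rose over the course, with a slope of 0.16 (adjusted p over all probe sets = 0.0334). Both the direction and the call of Cacna1a therefore depend on the probe set. Cacna1b, the N-type channel, read 9.42 at P0, against 7.87 at E11, and was not called (slope 0.13 ± 0.055, adjusted p = 0.0673). Cacna1h, a T-type relative of Cacna1g, was highest at E13 (7.84) and lowest at E11 (6.24), and was not called either.

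Accessory subunits of calcium channels bring the pore to the membrane. Cacna2d3 read 3.28, 4.21, 7.21, 6.91, 8.66, 8.50, 8.41, 8.46 and 8.56 (slope 0.63 ± 0.12, adjusted p = 0.0022), and its P0 level exceeded that of E11 by at least 11.8-fold. Its first 2 arrays were under 5 and the arrays from E15 on were the highest, and an exact rank correlation gave an adjusted p of 0.0535. Its relative Cacna2d2 fell by 0.14 ± 0.034 per day (adjusted p = 0.007), with 8.34 at P0, against 9.51 at E11. Cacna2d1, which binds gabapentin, averaged 10.90 over the 9 arrays and had no called slope (0.023 ± 0.038). Of its 3 further probe sets, 1 had a slope of 0.038 and was not called, and 2 fell, with slopes of -0.10 and -0.25 (adjusted p over all probe sets = 0.0292 and 0.00132), so its direction depends on the probe set.

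Of the cytoplasmic beta subunits, Cacnb2 and Cacnb4 rose by 0.31 ± 0.059 and 0.24 ± 0.057 per day (adjusted p = 0.00182 and 0.00638), and Cacnb1 was not called (slope 0.072 ± 0.03, adjusted p = 0.0746).

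Gamma subunits of the Cacng family include the proteins that carry AMPA-type glutamate receptors to synapses. Cacng5 read 5.72, 7.40, 7.80, 7.47, 8.98, 9.03, 9.25, 9.95 and 10.38 (slope 0.51 ± 0.051, adjusted p = 4.7e-05), 25.2-fold higher at P0 than at E11. It still rose over the last 5 ages. Cacng2, called stargazin, read 3.61, 4.73, 6.79, 6.33, 7.46, 7.41, 7.08, 7.17 and 7.34 (slope 0.40 ± 0.095, adjusted p = 0.00627), with all arrays from E15 on above all earlier ones, though an exact rank correlation gave an adjusted p of 0.0803. A further Cacng2 probe set rose with a slope of 0.24 (adjusted p over all probe sets = 0.00678). Another was not called (slope 0.0875, adjusted p over all probe sets = 0.0515), so the size of the Cacng2 rise depends on the probe set. Cacng4 and Cacng8 were not called (slopes 0.013 ± 0.042 and -0.023 ± 0.026), and Cacng4 was already at 9.28 at E11.

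Hcn3, the single pacemaker gene among the members, read 6.36, 7.11, 7.08, 7.39, 7.90, 7.23, 7.46, 7.10 and 7.45, and was not called (slope 0.082 ± 0.044, adjusted p = 0.151).

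Pairs of related subunits were compared by the slope of their difference on each array, with a two-sided exact permutation test of the 9 ages and Benjamini-Hochberg adjustment over the 4 pairs that could be tested of 7 listed. Scn2a gained on Scn3a by 0.34 ± 0.081 log2 units per day (exact permutation p = 0.00428, adjusted 0.00571). The difference, of which only the change can be read, was 1.72 at P0, against -0.77 at E11, and from E15 on it was above all earlier arrays. Scn8a did not separate from Scn3a (-0.023 ± 0.05 per day, exact permutation p = 0.654), which does not show that they moved alike. The limit on the Scn8a probe set given above holds here too.

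Cacng2 gained on Cacng4 by 0.39 ± 0.074 per day (exact permutation p = 8.27e-05, adjusted 0.000331). Other Cacng2 probe sets had smaller slopes, as given above, and the pair was not tested with them. Cacng2 was under 5 at E11 and E12, and with values under 5 set to 5 the slope of Cacng2 minus Cacng4 was 0.28 (exact permutation, adjusted p = 0.00483). Cacna1a lost to Cacna1g by 0.36 ± 0.054 per day, a difference slope of -0.36 (exact permutation p = 0.000617, adjusted 0.00124), with the limit on the Cacna1a probe set given above. Cacna1g was under 5 until E14, and with values under 5 set to 5 the slope of Cacna1a minus Cacna1g was -0.17 (exact permutation, adjusted p = 0.00805).

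**Figure D5:**
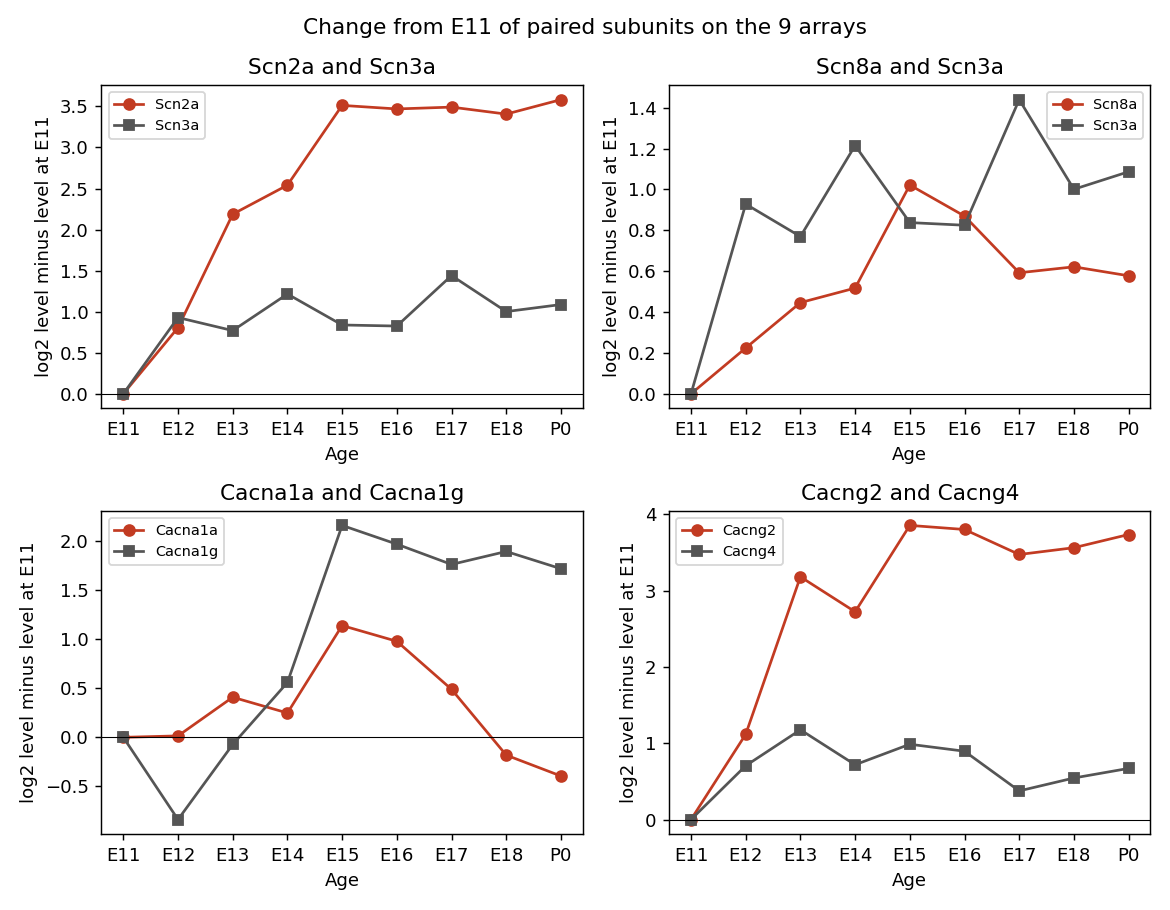
Change of paired subunits from their own E11 level, in log2 units by age, on the 9 arrays; the first gene of each pair has red circles and the second grey squares. Scn2a and Cacng2 climb away from Scn3a and Cacng4, Cacna1a ends below Cacna1g, and Scn8a and Scn3a cross.

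The course was not straight for many members. A fit with age squared called 16 members for a downward curve whose fitted turning point lay inside the course, between day 15.1 and day 17.6, and 0 for an upward one. Of all genes tested, 4.96% were called for the first and 1.26% for the second. The fitted turn is not always a measured maximum: Cacna1c, Cacna1d and Scn2a were highest at P0. Of the 16, 12 also rose (Cacna1c, Cacna1d, Cacna1e, Cacna2d3, Cacnb4, Cacng2, Kcna2, Kcnd3, Kcnip4, Kcnj3, Scn2a and Scn3b) and their P0 level minus their E15 level lay between -0.42 (Cacna1e) and 0.44 (Kcnj3). The other 4, Cacna1b, Kcnma1, Kcnmb2 and Scn9a, had no called slope. The curvature calls rested on few arrays: 4 were called without E11, 8 without E15 and 3 with sex as a covariate, and 3 of the 4 female arrays lay at the ends of the course (E11, E12 and P0).

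Few members were called for a rise after E15, and few of all genes tested were. Over E15 to P0 alone, again chosen after the values were seen, Kcna1 (0.54), Kcnj10 (0.42), Cacng5 (0.37), Kcnf1 (0.33), Kcnc2 (0.30) and Kcnmb4 (0.24 log2 units per day) rose, with adjusted p between 0.0151 and 0.0473. These were 6 of the 66 members. Over all genes tested 1.93% rose over those ages, against 25.2% over the whole course, so a missing call over these ages does not show a level course. Kcna1 reached 5 on 3 arrays (E17, E18 and P0) and Kcnj10 on 4 (E16 to P0), so both became members only through late arrays, and their late rise is tied to that choice. From E13 to P0, 21 members rose, while 14.0% of all genes tested did, and all 21 were among the 39. The other 18 lost their call over those ages, with adjusted p between 0.0508 and 0.958: Cacna1e, Cacna1g, Cacna2d3, Cacnb2, Cacnb4, Cacng2, Kcna2, Kcna4, Kcnc1, Kcnd3, Kcnip2, Kcnip4, Kcnj8, Kcnk2, Kcnn4, Kcnq3, Kcnv1 and Scn3b. Over the same ages Kcnk10, Kcnh8, Scn9a and Cacna1h fell, and Kcnk5 (adjusted p = 0.674), Kcnn1 (0.254), Cacna2d2 (0.0889) and Kcnq1ot1 (0.0643) were not called.

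Other probe sets of the members mostly moved the same way. Of 42 further probe sets past the filter, for 25 members, 38 had a slope of the same sign as the one used. The 4 of opposite sign belonged to Cacna2d1, Cacna1a and Cacng4, genes with no call by the probe set used. Those of Cacna2d1 fell (adjusted p over all probe sets = 0.0292 and 0.00132) and that of Cacna1a rose (0.0334). The one of Cacng4 was not called (0.951). Neighbouring genes were not always called alike: Scn3a, Scn2a, Scn1a and Scn9a follow each other among the channel genes of mouse chromosome 2, and Scn2a and Scn1a rose while Scn3a and Scn9a did not pass the test. Cacng5, which rose, and Cacng4, which did not pass, are next to each other on chromosome 11.

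The DNA before the start of a few members is shown to set genes of different course side by side: Scn2a and Kcnd2, which rose, Cacng2, which gained on its pair, and Kcnk5, which fell. Each is the 250 bases before a RefSeq start site in build GRCm38.p6, read 5′ to 3′ on the gene's strand, at chr2:65668436-65668685 (plus) for the second of the Scn2a starts, chr6:21215096-21215345 (plus) for Kcnd2, chr15:78119281-78119530 (minus) for Cacng2 and chr14:20181783-20182032 (minus) for Kcnk5. Capitals mark TATAAA, a match to the TATA element by sequence only, in Scn2a, the GC box GGGCGG in Kcnd2 and Kcnk5, and the E-box CAGCTG in Cacng2. The window of the first Scn2a start, not shown, held none of these motifs.
Scn2a: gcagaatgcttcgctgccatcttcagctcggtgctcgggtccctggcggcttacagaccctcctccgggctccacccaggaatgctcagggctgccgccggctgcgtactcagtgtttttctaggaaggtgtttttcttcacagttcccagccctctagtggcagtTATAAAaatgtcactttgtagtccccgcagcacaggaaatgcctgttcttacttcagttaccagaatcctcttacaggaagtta
Kcnd2: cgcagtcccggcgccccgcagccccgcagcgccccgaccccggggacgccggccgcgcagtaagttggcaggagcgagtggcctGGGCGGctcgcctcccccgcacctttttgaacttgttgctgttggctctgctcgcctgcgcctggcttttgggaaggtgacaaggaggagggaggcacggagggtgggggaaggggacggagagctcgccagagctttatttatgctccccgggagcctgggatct
Cacng2: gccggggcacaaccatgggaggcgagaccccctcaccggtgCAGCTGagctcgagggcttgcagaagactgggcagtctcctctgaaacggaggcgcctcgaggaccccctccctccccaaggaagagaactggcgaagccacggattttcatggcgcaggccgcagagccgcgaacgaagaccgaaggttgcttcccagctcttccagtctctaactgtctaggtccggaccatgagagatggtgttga
Kcnk5: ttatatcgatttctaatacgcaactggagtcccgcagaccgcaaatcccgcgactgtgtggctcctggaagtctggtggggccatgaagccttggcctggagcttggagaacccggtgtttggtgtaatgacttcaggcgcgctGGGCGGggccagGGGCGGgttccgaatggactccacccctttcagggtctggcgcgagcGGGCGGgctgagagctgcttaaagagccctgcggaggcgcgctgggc

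Over the 77 starts of the 51 members that had an entry, these motifs were counted on both strands and set against all 32851 RefSeq promoter windows of the same length; none of the motifs contains another. GGGCGG stood in 29 of the 77 (37.7%), against 32.7% of all windows. TATAAA stood in 3 (3.90%, those of Cacna1d, Kcnj9 and Scn2a), against 12.4%. The E-box CAGCTG stood in 21 (27.3%), against 13.0%, and CAGATG in 13 (16.9%), against 14.4%. The median GC content was 58.8% in the members' windows, against 52.4% in all, so the windows differed in composition as well. TTCAGCACC, a stretch of the element bound by the repressor Rest, stood in 0 windows of the members, against 0.301% of all windows. With so rare a motif, 0 was the likely count in 77 windows, and no DNA outside the windows was searched. The count therefore cannot show whether the members lack Rest sites.

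Partner proteins that bind or place the channels or set the ion gradients, from a list of 38 genes, were read in the same fit. Of 32 tested, 18 rose, 4 fell and 10 were not called, and the median fitted change over the course was 1.38 log2 units. Of all genes tested, 25.2% rose and 21.9% fell, with a median change of 0.016. Among the rising partners, Fgf12, Dpp10, Unc80, Dlg2, Lgi1, Cnih3, Sptbn4, Fgf11, Dpp6 and Amigo1 were under log2 5 at E11. These genes passed the filter only through later arrays, so the filter itself favoured a rise in them, and their slopes partly run over values that are not well measured. Fgf12, which binds the tail of sodium channels, read 2.94, 7.07, 9.18, 9.20, 10.69, 10.61, 10.74, 11.08 and 11.15 (slope 0.82 ± 0.17, adjusted p = 0.00261). Dpp10, a partner of Kcnd channels, rose by 0.76 ± 0.10 per day (adjusted p = 0.000265), and Unc80, a subunit of the sodium leak channel Nalcn, by 0.68 ± 0.085 (adjusted p = 0.000179). Fgf12 was lowest at E11 and highest at P0. Of the genes that fell, Cntnap2, which clusters potassium channels along axons, fell by 0.23 per day, Rest, a repressor of neuronal genes, by 0.17 and Rem2, a GTPase that inhibits calcium channels, by 0.11 (adjusted p = 0.000146, 0.000844 and 0.0427).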

How the data were processed

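Olfactory bulb RNA of 9 mice, 1 per age, was amplified and hybridised to Affymetrix arrays, 1 for each animal, per the labels. Per the submitters' processing notes the authors used GCRMA, a method that corrects and normalises probe signals, and they deposited its log2 levels. Its version is not given in the sources used here. That the scale is log2 was inferred from the method and the values. Precision is limited by the number of arrays.

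Of 45101 probe sets, 64 were controls, 34958 named 1 gene in the platform annotation, 932 several and 9211 none; only the first kind was used. For each gene the probe set of highest mean was taken among those at log2 5 or more on at least 2 of 9 arrays (10864 genes). Each gene was fitted against age (P0 as day 19) with limma 3.58.1 in R 4.3.3, with moderated variance and its trend, two-sided, with Benjamini-Hochberg adjustment over all genes (7 residual degrees of freedom, 10.3 moderated; median residual SD 0.24). The methods were tested on simulated data. Folds use 5 as a floor. Members with a peak were those with a downward curve; peaks and dips needed a quadratic term past 0.05 and a turning point between day 12 and day 18.

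Members, gene lists and pairs were chosen with earlier results of these data known. The text names all pore-forming sodium, calcium and HCN genes, the 3 steepest rising and falling members of each other class, members with a peak, those of highest mean reading (no ranking of expression), those next to the level filter, the pairs, and the 3 largest rises and falls of the partner list; further members are named to complete their class. Names next to the filter were chosen by second-highest level. Alternatives were each array left out, P0 as day 20, sex as a covariate, other filters and floors, quantile normalization, median centring, the mean of all probe sets, another probe set choice, no variance trend, an exact rank correlation, and E13 to P0 only. Either scaling shifted array medians by no more than 0.0877. Of the partner genes, 3 were not analysed here and 3 did not pass the filter.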

Additional observations from a re-analysis of the deposited data

How the results depend on the processing

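No paired analysis was possible because each age had 1 array. Of the 44 called members, 21 kept their call under every alternative they were tested in, E15 to P0 aside, 20 rising and 1 falling (Kcnk10), and 8 members that were not called gained a call under at least 1. The number of rising members lay between 35 and 40 with any 1 array left out and fell to 21 with E13 to P0 and 6 with E15 to P0, against 39 in the whole course. The last alternative was chosen after seeing the data. Falling members numbered 1 over E15 to P0, against 5. Rising potassium channel genes numbered 15 over E13 to P0 and 5 over E15 to P0, against 26; falling ones numbered 2 and 0, against 4, and 2 to 4 with 1 array left out. Rising sodium channel genes numbered 0 over E15 to P0, against 4, and 1 fell over E13 to P0, against 0. Rising calcium channel genes numbered 5 by exact rank correlation, 3 over E13 to P0 and 1 over E15 to P0, against 9, and falling ones 1 to 2 with 1 array left out, against 1. Downward curves numbered 4 to 15 with 1 array left out and 3 with sex as a covariate, against 16.

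The slope of the difference Scn8a minus Scn3a lay between -0.0508 and 0.0059 with 1 array left out. Apart from E15 to P0, slopes that changed sign belonged to members with no call; among the members not detailed here these were Kcnh2, under 9 of 21 alternatives, and Kcna5, Kcng1 and Kcnh8, under 1 each. The Cacna1a slope lay between -0.0625 and 0.0441 with 1 array left out (0.0071 without E18) and was 0.068 with the mean of probe sets. The Cacna1h slope lay between -0.1351 and 0.0131 with 1 array left out (0.0076 without E12 and 0.0023 without E13). The Cacna2d1 slope lay between -0.0363 and 0.0571 with 1 array left out and was -0.0732 with the mean of probe sets and -0.0282 over E13 to P0. The Cacng4 slope lay between -0.0538 and 0.0343 with 1 array left out and was -0.005 with median centring, with a coefficient of -0.1167 by rank correlation, and -0.0884 over E13 to P0. The Scn9a slope lay between -0.0938 and 0.0826 with 1 array left out and was -0.0033 with sex as a covariate and -0.2 over E13 to P0. Over E13 to P0 the slopes of Cacna1b, Kcnma1 and Kcnmb2 were -0.0104, -0.0778 and -0.0113. Over E15 to P0, 13 rising members had slopes below 0, from -0.156 (Kcnv1) to -0.0028 (Kcna2), none called: Cacna1e, Cacna1g, Cacna2d3, Cacnb4, Cacng2, Kcna2, Kcna4, Kcnd3, Kcnip4, Kcnj8, Kcnn4, Kcnv1 and Scn3b. The cause of these changes was not tested, and the shorter courses also hold fewer ages. With 1 array per age, an age and its animal cannot be told apart, and values under log2 5 carry little signal over background.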

Other observations

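The 5 genes of all those tested whose 9 arrays followed Scn2a most closely were Igfbp5 (Pearson r = 0.998), Ryr2 (0.997), Pde4d (0.997), Ryr3 (0.996) and Shisa9 (0.996), given as a description over 9 arrays that share their age order. Ryr2 and Ryr3 encode calcium release channels of the endoplasmic reticulum, and Shisa9 a partner of AMPA-type glutamate receptors. Ryr2 read 8.85 at P0, against 3.86 at E11, and Shisa9 read 9.23 at P0, against 2.5 at E11.

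Of the 121 genes named by the symbol rule, 55 did not pass the level filter. Just outside it, by second-highest level, lay the non-coding RNA Kcnmb4os2 (4.80), the A-type channel gene Kcnd1 (4.50) and the inward rectifier Kcnj13 (4.45), and just inside it Kcne4 (5.04), Kcng1 (5.07) and Kcnip3 (5.20). Scn11a, a sodium channel gene known from sensory neurons, reached 5.88 on the E12 array and no more than 4.04 on any other. These singletons were picked out after their values were seen. The class of inward rectifiers kept 5 of 15 named genes, the alpha-1 subunits of calcium channels 7 of 9, and the accessory subunits of calcium channels 6 of 7.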
